A study of Rattus norvegicus with 8 samples.

Results

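The genes described here are 33 rat genes that work in S phase, the stage of the cell cycle in which DNA is copied. They comprise 7 genes of origin licensing and the replicative helicase, 9 of the polymerases, the sliding clamp and the fork, 3 of nucleotide supply, 9 of histone supply and chromatin, 4 of repair, and the cyclin gene Ccne2. They were chosen by symbol, and an array probe was assigned to one of them where its accession, without the version, was a RefSeq transcript of that gene. All 33 were on the array, through 44 of the 45598 gene probes. All 44 probes passed the filter on dim signals, and 31 of the 33 genes were well above background on all 8 arrays. Gins2 and Pola1 were so on 4 of 4 control arrays and on 3 of 4 Klf4 arrays.

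RNA came from retinal explants of Lister hooded rats, taken at postnatal day 0, that were electroporated in a dish and kept in culture for 39 hours. The control group, 4 arrays, received a control plasmid, and the Klf4 group, 4 arrays, one that expresses Klf4, which encodes a Krüppel-like transcription factor. In both groups only GFP-positive cells, collected by fluorescence-activated sorting, were profiled, so the arrays report on transfected cells of any retinal type and not on the whole explant. Both groups carry the arrays numbered 2 to 5. Which promoter drives Klf4, and from which species its sequence comes, was not given in the sources used here. The labels do not say that the arrays came from separate animals or electroporations, so the p-values measure the spread between these arrays, which may be technical.

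Before a cell divides, the origins of its chromosomes are licensed by loading a ring-shaped helicase, the MCM complex, with the help of Cdc6 and Cdt1. At the start of S phase Cdc45 and the GINS complex join the ring and the fork opens, and polymerases, clamp, clamp loader and single-strand binding proteins then copy both strands while nucleotides and histones are supplied. Most of these genes are transcribed together as cells enter S phase, when cyclin E and its kinase inactivate the retinoblastoma protein and release E2F transcription factors. In the newborn rodent retina the dividing cells are late progenitors, and the neurons already born have left the cycle. In RNA from a mixture of cells, fewer cells in S phase and less RNA of these genes in each such cell cannot be told apart.

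Because these genes are known as a group for E2F sites near their starts, their promoter sequences are shown before the levels. RefSeq promoter windows of assembly GRCr8, running from 250 bases before to 50 bases after the annotated start, were given for 26 of the 33 genes, with none for Mcm4, Cdc6, Dscc1, Rrm2, Casp8ap2, Atad2 and Ccne2. The windows were searched on both strands for 4 E2F words, TTTCCCGC, TTTGGCGC, TTTCGCGC and TTTGCCGC. At least 1 of them was found in 14 of 26 windows (53.8%), against 618 of the 27457 windows in the table (2.25%) and 2.82% of those of protein-coding genes. The stretches of 30 bases around each match follow, 5′ to 3′ on the gene's strand, with the E2F word in capitals.
Mcm2, chr4:122918088-122918117, minus strand: tgacccggtTTTCGCGCGAAAacccgtggc
Mcm6, chr13:42404471-42404500, minus strand: gcgtctgctTTTGGCGCGAAAttagcgtgt
Gmnn, chr17:40729854-40729883, plus strand: tctgcaggttcgggtcgtTTTGGCGCggtt
Pola1, chrX:62342509-62342538, minus strand: gtcatcacaggGCGCCAAAtgcagtcccgc
Pold3, chr1:163868763-163868792, minus strand: tgagcgaagctgTTTCCCGCcggcgggagc
Rpa2, chr5:150260768-150260797, plus strand: gccacgccggaGCGGCAAAcacttcttaag
Tipin, chr8:73676049-73676078, plus strand: gcgtacccttgGCGCCAAActtcccagctt
Tyms, chr9:120776102-120776131, minus strand: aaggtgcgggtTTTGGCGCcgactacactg
Slbp, chr14:81295998-81296027, plus strand: cattTTTCCCGCccttctggacggctgcgt
Hells, chr1:246114089-246114118, plus strand: gatgaccaggtTTTCCCGCgaaagagaagc
Cdca7, chr3:77730247-77730276, plus strand: tgcgtcccggcGCGGGAAAgccggtggccc
Ubr7, chr6:127663421-127663450, plus strand: tggcggccactTTTCCCGCcgcctccaggg
Ung, chr12:48154047-48154076, minus strand: gcgggaacagtTTTGCCGCgaaaagcccgc
Usp1, chr5:118703014-118703043, plus strand: tggctcgcgccTTTCGCGCctctgcaacgt
In Mcm2 and Mcm6 a word on the given strand overlaps a word on the other strand, so that the capitals cover both words. Of the 16 words found, 9 began within 100 bases before the start, and their positions ran from 246 bases before it (Slbp) to 38 bases after it (Gmnn). A match is a description of letters and not a measured site. Further words were also counted. The CCAAT box, CCAAT, was in 14 of 26 windows (53.8%, against 37.7% of all windows and 38.4% of those of protein-coding genes). The cell cycle homology word TTTGAA was in 5 (19.2%, against 18.1% and 17.0%). The word CCNCNCCC, of the kind that KLF factors bind, was in 17 (65.4%, against 47.2% and 52.2%).

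The 250 bases before the start are shown for 2 of these genes, Mcm6 and Ung, because they had the lowest and the highest difference between the groups among all 33 while both carry an E2F word (in capitals).
Mcm6, chr13:42404353-42404602, minus strand: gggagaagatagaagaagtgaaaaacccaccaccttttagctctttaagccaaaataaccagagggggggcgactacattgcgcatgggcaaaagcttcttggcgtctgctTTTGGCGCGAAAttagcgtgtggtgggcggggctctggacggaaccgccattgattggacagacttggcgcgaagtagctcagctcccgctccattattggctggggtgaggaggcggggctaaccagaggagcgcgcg
Ung, chr12:48154046-48154295, minus strand: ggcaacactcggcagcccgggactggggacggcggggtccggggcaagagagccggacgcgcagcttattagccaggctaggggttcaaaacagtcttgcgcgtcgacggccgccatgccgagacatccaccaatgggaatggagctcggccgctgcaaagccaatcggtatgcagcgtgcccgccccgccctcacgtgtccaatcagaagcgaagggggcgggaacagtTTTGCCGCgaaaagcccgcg
The log2 difference between Klf4 and control arrays had a median of -0.29 over the 14 genes with an E2F word, 12 of them below 0. Over the 12 genes without one it had a median of -0.25, with 12 below 0. The genes with a word spanned -0.78 to 0.41 and those without -0.60 to -0.13, so the first range covers the second.

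Levels are given below as the normalised log2 signal, which is the log2 of the array's processed signal less that array's 75th percentile, so that 0 stands for the 75th percentile and a difference of 1 is 2-fold. Differences are Klf4 minus control on this log2 scale. The 75th percentile signal ranged from 2399 on control array 5 to 5370 on control array 3, and 72.1% (Klf4 array 4) to 86.5% (Klf4 array 2) of gene spots were well above background. The arrays numbered 5 belong to a second scan, and those numbered 4 fell outside the quality limits of the scanning software. The control and Klf4 arrays lay in different columns of the slide, so that column and group cannot be told apart. All 10 retina-defining markers (among them Pax6 and Crx) were well above background on all 8 arrays. The Klf4 probe read -3.87, -2.45, -3.58 and -3.18 on control arrays 2 to 5 and -3.70, -1.74, -3.37 and -3.19 on Klf4 arrays 2 to 5. Its difference was 0.27 (SE 0.46, limma adjusted p = 0.916) and the groups overlapped, falling to -0.15 without Klf4 array 3. It could not serve as a check of the labels, since nothing says that its target lies within the plasmid's Klf4 sequence, and the labels were used as they stand.

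No S phase gene passed the test between Klf4 and control, although most of them read lower on the Klf4 arrays. With limma and a Benjamini-Hochberg adjusted p under 0.05 over all 30020 features, 0 of 33 were lower and 0 higher, where 0.463% of all features were called lower and 3.2% higher. None had an unadjusted p under 0.05 (0 of 33, against 11.9% of all features), and the smallest adjusted p was 0.444, for Gins2. With the scan as a block 11 of 33 had an unadjusted p under 0.05 and the smallest adjusted p, again that of Gins2, was 0.093. That block also raised the features called, from 139 to 254 lower and from 961 to 1147 higher. The share of all features with an unadjusted p under 0.05 is not given for it, so the 11 are not read as particular to these genes. The groups of 4 arrays overlapped for all 33 genes, where 4.47% of all features did not overlap with the Klf4 arrays lower and 5.74% with the Klf4 arrays higher. The difference was below 0 for 30 of 33 genes (90.9%, against 60.9% of all features), with a median of -0.32 against -0.07 over all features. The intervals were wide: 14 of the 33 intervals (95%) reached below -1 (42.4%, against 17.7% of all features) and 1, that of Ung, reached above 1 (3.03% against 12.3%). The median residual SD was 0.40 for these genes and 0.31 for all features.

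A single control array stood apart from the others. Control array 5 had the highest reading of the 8 for 30 of the 33 genes, while it had the highest reading for 20.6% of all features. The lowest reading lay on Klf4 array 2 for 26 of the 33 genes (11.8% of all features). It lay on Klf4 array 4 for 6, a smaller share than that of all features (27.7%), namely Mcm2, Mcm6, Rfc2, Pola1, Slbp and Ung. For Usp1 it lay on control array 2 (8.22% of all features). Averaged over the 33 genes, each set to its own mean over the 8 arrays, control arrays 2 to 5 stood at -0.16, 0.07, -0.13 and 0.81, and Klf4 arrays 2 to 5 at -0.51, -0.04, -0.21 and 0.17. Control arrays 2, 3 and 4 thus lay among the Klf4 arrays, and control array 5 lay above all the others.

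**Figure D1:**
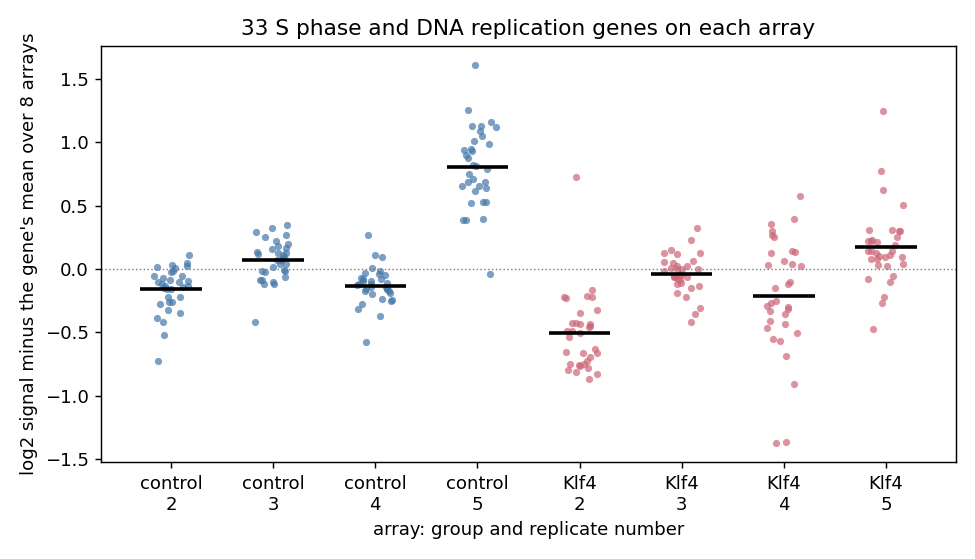
Each point is 1 of the 33 genes on 1 array, as its normalised log2 signal minus that gene's mean over the 8 arrays, and the bars are array means (control in blue, Klf4 in red). The mean was 0.81 on control array 5 and between -0.51 and 0.17 on the other 7 arrays.

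That array was highest for the same number of genes, 30, with normexp background correction, quantile normalisation, the array median, no filter on dim probes and in the authors' deposited table, and for 31 with the mean over a gene's probes. In these settings control array 5 was highest for 17.5% to 27.5% of all features. With no scaling between arrays it was highest for 2 genes (0.655% of all features) and control array 3 for 24 (37.8% of all features). Without control array 5 the median difference of the 33 genes was -0.09, where that of all features was -0.11, and 21 of 33 were below 0. Leaving that array out turned the sign of 9 genes and shrank the difference of 20 others by over 1.5 times, as for Cdc45 (to -0.17), Dscc1 (to -0.19), Rrm2 (to -0.05), Prim1 (to -0.016) and Rrm1 (to -0.0038). It enlarged 2 by over 1.5 times. Without Klf4 array 2 it was -0.18, with 28 of 33 below 0. The median SD among the 4 control arrays was 0.44 over these genes and 0.14 without control array 5, and for all features 0.23 and 0.12.

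Arrays of the same number were also set against each other, as a description only. The labels do not say that they are pairs, and the numbers did not pair the arrays by the rule used. The r of same-numbered deviations was 0.356, 0.244, 0.0614 and 0.551, and Klf4 array 4 correlated best with number 3. Agreement between numbers, here and for single genes below, is thus no evidence from matched arrays. At number 2 the Klf4 array read lower than the control array for 30 of 33 genes, against 61.7% of all features (median -0.39, all features -0.09). At number 3 it did so for 26 of 33, against 55.2% of all features (median -0.12, all features -0.03). At number 4 it did so for 16 of 33, against 55.7% of all features, with a median of 0.00 (all features -0.10). At number 5, the arrays of the second scan, it did so for 32 of 33, against 53.1% of all features. The median there was -0.64 (all features -0.03). With the probe used for each gene, the Klf4 array was the lower at all 4 numbers for 12 genes. These were Mcm2, Mcm6, Cdc6, Gins2, Cdc45, Rfc2, Rpa2, Tyms, Cenpu, Exo1, Rad51ap1 and Ccne2. It was the lower at 3 numbers for 16, at 2 for 3 (Gmnn, Pold3 and Nasp), and at 1 for 2 (Ung and Usp1). The shares of all features with these patterns are not given here, so the counts are not read as particular to these genes. In the first scan alone the median was -0.21, with 25 of 33 below 0, and 0 genes passed.

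**Figure D2:**
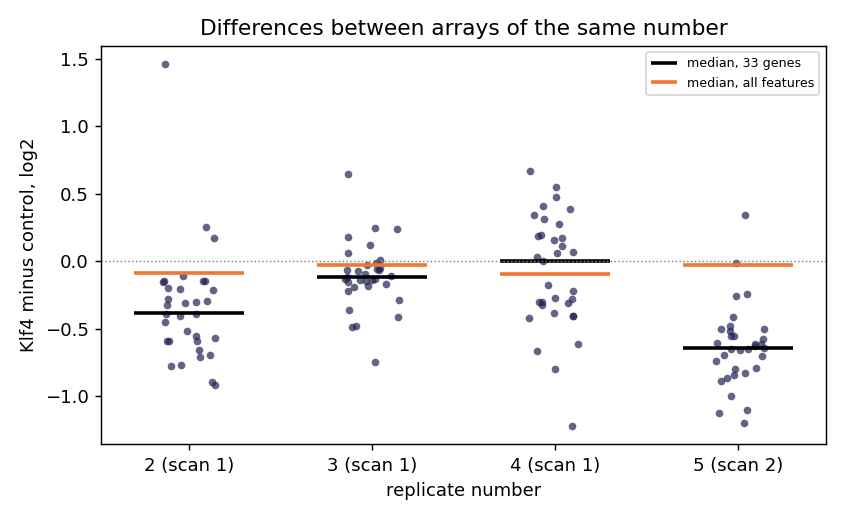
The vertical axis is the log2 difference, Klf4 minus control, between the 2 arrays of each replicate number, with 1 point for each of the 33 genes, their median in black and the median of all features in orange. The genes lay lowest at number 5 (median -0.64) and around 0 at number 4 (median 0.00).

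The licensing and helicase genes had the lowest median difference among the groups with more than 1 gene, -0.47, with 7 of 7 below 0 and 0 of 7 past the threshold. Mcm6, a subunit of the MCM ring, read -0.51, -0.21, -0.55 and 1.20 on control arrays 2 to 5 and -1.10, -0.41, -1.78 and 0.10 on Klf4 arrays 2 to 5. The Klf4 arrays were the lower at each number, but Klf4 arrays 3 and 5 read above control arrays 2 and 4. The difference, -0.78 (SE 0.50, adjusted p = 0.657), was the largest of the 33 in size and ranged from -1.08 to -0.28 over the alternatives. Gins2, a subunit of the GINS complex, read -4.57, -4.02, -4.23 and -3.36 in the controls and -4.97, -4.76, -4.64 and -4.20 on the Klf4 arrays. Klf4 array 5 alone lay within the control range, the other 3 below it, and the difference was -0.60 (SE 0.27, adjusted p = 0.444). With normexp background correction it was -0.24. A second, dimmer probe of Gins2 had a difference of -0.27. On that probe the Klf4 array was the higher at number 3 (-4.96 against -5.13) and at number 4 (-5.17 against -5.25).

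Cdc6, which loads the MCM ring, read -2.77, -2.53, -3.07 and -1.66 in the controls against -3.69, -2.67, -3.39 and -2.79 with Klf4, a difference of -0.63 (SE 0.34, adjusted p = 0.570). Klf4 arrays 3 and 5 lay within the control range here. Cdc45, which travels with the ring as part of the active helicase, read 0.94, 1.22, 0.89 and 2.21 in the controls and 0.35, 1.08, 0.58 and 1.38 with Klf4 (difference -0.47, adjusted p = 0.717). For the other ring subunits, Mcm2 and Mcm4, the differences were -0.35 and -0.24. Gmnn encodes geminin, the inhibitor of Cdt1 that stops origins from being licensed again. It read -1.19, -0.79, -0.95 and 0.38 in the controls and -1.34, -0.55, -0.54 and -0.42 with Klf4. Its difference was -0.07 and turned to 0.27 without control array 5, and at numbers 3 and 4 the Klf4 array was the higher.

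Of the polymerase, clamp and fork genes 9 of 9 were below 0, with a median of -0.24 and 0 past the threshold. Pcna, the sliding clamp, read 2.26, 2.70, 2.38 and 3.24 in the controls and 2.15, 2.52, 2.72 and 2.68 with Klf4, a difference of -0.13 (SE 0.24, adjusted p = 0.926). Apart from control array 5 the readings of both groups were interleaved, and without that array the difference was 0.07. Pola1, the catalytic subunit of polymerase alpha, read -3.84, -3.74, -3.85 and -2.36 in the controls and -4.15, -3.62, -4.52 and -2.84 with Klf4. Both arrays of the second scan were the highest of their groups. Its difference of -0.34 (SE 0.44, adjusted p = 0.874) was 0.03 without control array 5.

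In the same group, Dscc1, of an alternative clamp loader that acts in cohesion, had a difference of -0.48 (adjusted p = 0.688), the lowest of the 9. Rpa2, of the single-strand binding complex, had -0.32, and Prim1, the small subunit of primase, -0.26. Fen1, the nuclease that trims Okazaki flaps, had -0.24, and Rfc2, a clamp loader subunit, -0.19. Pold3, an accessory subunit of polymerase delta, had -0.13, and Tipin, a fork protection factor, -0.09. Control array 5 was the highest of the 8 arrays for each of these 9 genes.

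All 3 genes of nucleotide supply were below 0, with a median of -0.33. Tyms, thymidylate synthase, read -1.61, -1.64, -1.68 and -0.69 in the controls and -2.13, -1.71, -2.06 and -1.48 with Klf4. Klf4 array 5 was the only Klf4 array within the range of the controls, and the difference was -0.44 (SE 0.26, adjusted p = 0.612). Rrm2, the small subunit of ribonucleotide reductase, read 3.43, 3.80, 3.54 and 4.71 in the controls and 2.87, 4.03, 3.24 and 4.01 with Klf4 (difference -0.33, adjusted p = 0.832). Here Klf4 arrays 3 and 5 exceeded all controls but array 5. Its large subunit, Rrm1, had a difference of -0.21.

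Ccne2 encodes cyclin E2, which activates Cdk2 at the entry to S phase. It read -1.01, -0.76, -1.16 and 0.07 in the controls and -1.78, -1.12, -1.57 and -0.80 with Klf4. The Klf4 array was the lower at every number, yet Klf4 arrays 3 and 5 fell within the control range. The difference was -0.60 (SE 0.31, adjusted p = 0.540), and -0.34 without control array 5.

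**Figure D3:**
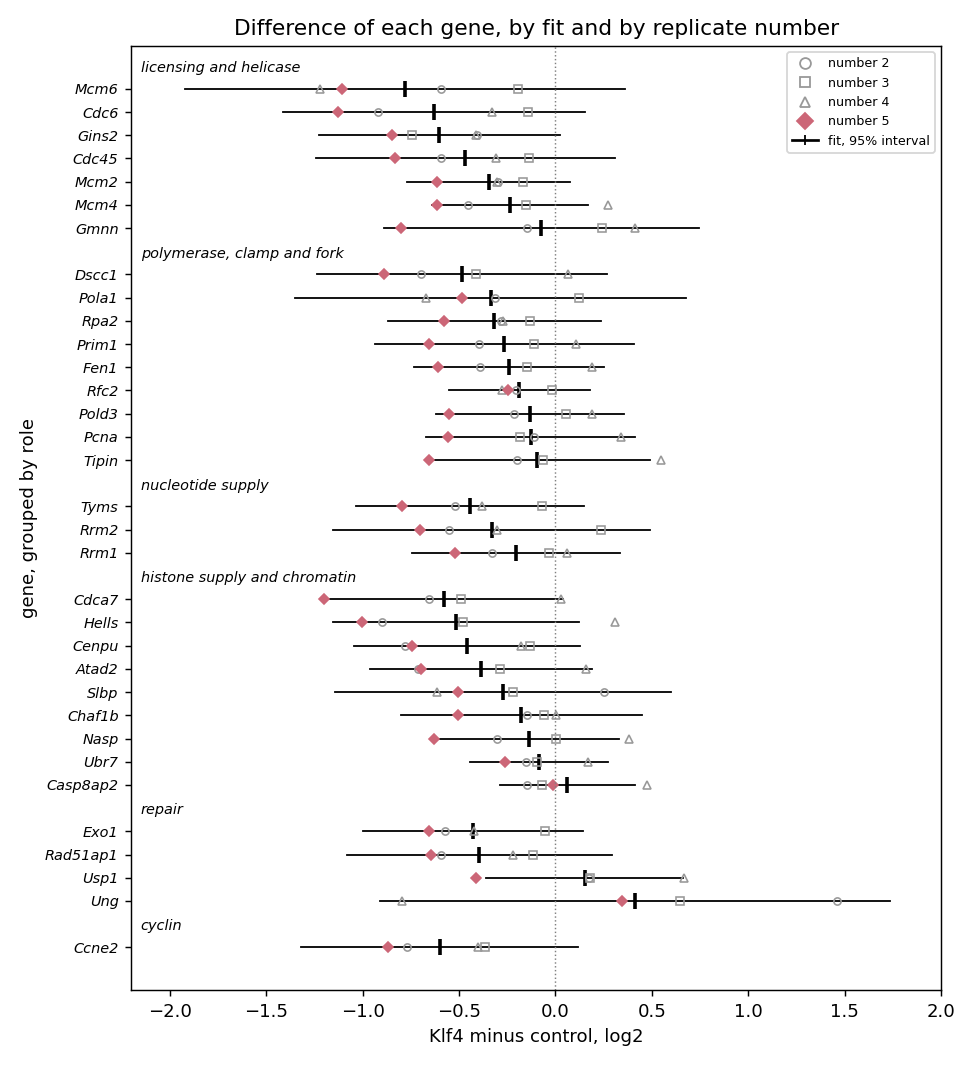
For each gene, grouped by role, the black tick and line give the log2 difference of the fit, Klf4 minus control, with its interval (95%), and the 4 symbols the difference between arrays of the same number (number 5 in red). The fitted differences ran from -0.78 (Mcm6) to 0.41 (Ung), and 30 of 33 were below 0.

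Among the histone supply and chromatin genes 8 of 9 were below 0, with a median of -0.27 and 0 past the threshold. Cdca7, a partner of the chromatin remodeller Hells, read -0.74, -0.33, -0.50 and 0.33 in the controls and -1.39, -0.82, -0.47 and -0.87 with Klf4. On Klf4 array 4 it lay within the control range, and on the other 3 it was below all of them. The difference was -0.58 (SE 0.27, adjusted p = 0.463). Cenpu, of the inner kinetochore, had -0.46, Atad2, a bromodomain ATPase, -0.39, and Chaf1b, of the histone chaperone CAF-1, -0.18. The histone chaperone Nasp had -0.14 and Ubr7, of the UBR ubiquitin ligase family, -0.09.

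Slbp and Casp8ap2 both serve the making of histone messenger RNA, by binding its stem-loop and by processing its end. Slbp read -0.84, -0.51, -0.50 and 0.71 in the controls and -0.58, -0.73, -1.11 and 0.20 with Klf4 (difference -0.27, adjusted p = 0.886), and 0.06 was its difference without control array 5. Casp8ap2 read -0.92, -0.72, -0.96 and -0.88 in the controls and -1.07, -0.79, -0.48 and -0.89 with Klf4. It was the most even of the 33 over the controls and did not stand higher on control array 5. Its difference was 0.06 (SE 0.15, adjusted p = 0.953).

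Hells, a remodeller needed for DNA methylation at repeats, was measured by 2 probes that diverged on 1 array. The probe used for the gene read -1.14, -1.13, -0.99 and -0.73 in the controls and -2.04, -1.61, -0.68 and -1.73 with Klf4. On 3 Klf4 arrays it was below every control, and on Klf4 array 4 it was the highest of the 8 arrays. The difference was -0.52 (SE 0.28, adjusted p = 0.563). The other probe read -2.30, -2.53, -2.37 and -1.96 in the controls and -3.42, -2.99, -4.16 and -3.11 with Klf4, lower on every Klf4 array than on any control, with a difference of -1.13. Hells passed the threshold with the mean over both probes (-0.82, adjusted p = 0.0239), with array weights (-0.70, adjusted p = 0.0174) and without Klf4 array 4 (-0.80, adjusted p = 0.0298). Those runs called 155 of 30020, 1107 of 30020 and 407 of 29922 features lower, in that order, against 139 of 30020 without these changes. Hells was the only gene of the 33 to pass in any alternative run.

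The other 9 genes with more than 1 probe kept 1 sign, and over all 10 the widest gap between probes was 0.78. It was that of Mcm4, whose 3 probes gave -0.99 to -0.21. No gene had probes whose differences lay more than 1 apart (0 of 10).

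Of the 4 repair genes 2 were below 0 and 2 above, with 0 past the threshold. Ung, the glycosylase that removes uracil from DNA, read -2.93, -2.62, -2.78 and -1.30 in the controls and -1.47, -1.98, -3.58 and -0.96 with Klf4. It was higher on the Klf4 array at numbers 2, 3 and 5 and lower at number 4, where Klf4 array 4 was the lowest of all. Its difference was 0.41 (SE 0.58, adjusted p = 0.886), with the widest interval on the upper side of the 33 (up to 1.74), and it was 0.94 without Klf4 array 4. Usp1, which removes ubiquitin from Pcna and Fancd2, read 0.38, 0.71, 0.40 and 1.29 in the controls and 0.55, 0.89, 1.07 and 0.87 with Klf4. It was higher with Klf4 at numbers 2 to 4 and lower at number 5, for a difference of 0.15 (adjusted p = 0.896). The exonuclease gene Exo1 had -0.43 and Rad51ap1, which acts in homologous recombination, had -0.39. A second, dimmer probe of Exo1 had only -0.07. That probe was lowest of the 8 arrays on control array 5 (-2.85), and the Klf4 array was the higher at numbers 3 and 5.

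**Figure D4:**
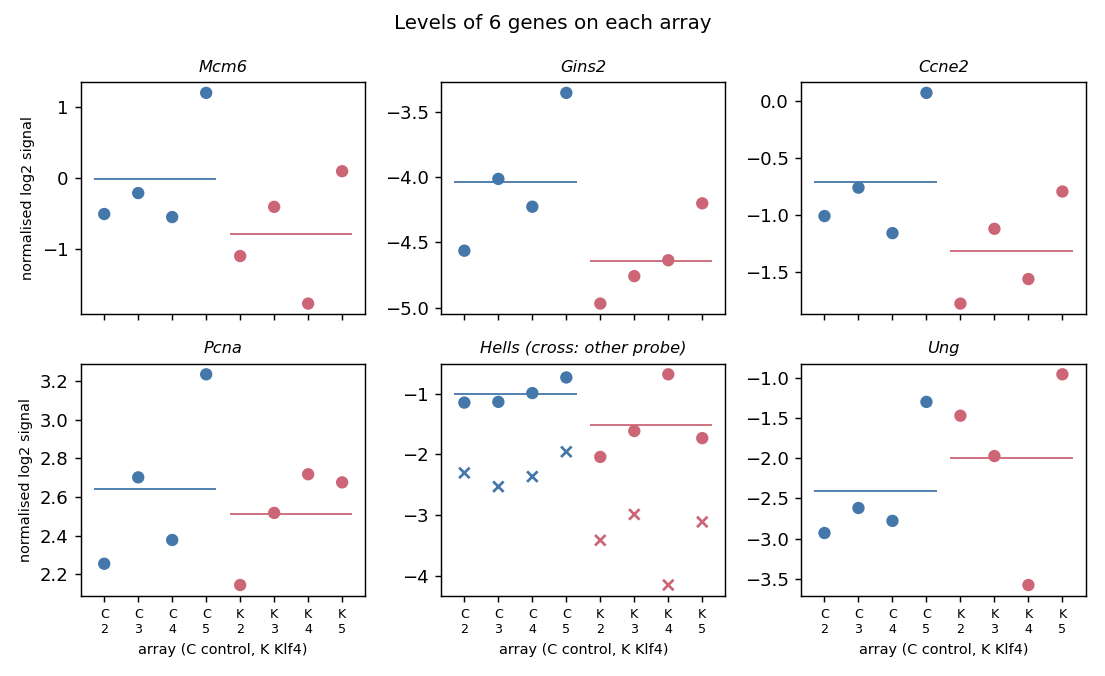
Points are the normalised log2 signals of 6 genes on control (blue, C) and Klf4 (red, K) arrays 2 to 5, lines are group means, and crosses show the other probe of Hells. Control array 5 was the highest array for Mcm6, Gins2, Ccne2 and Pcna, Klf4 array 4 for the Hells probe used (-0.68) and Klf4 array 5 for Ung (-0.96).

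Across the 8 arrays the genes varied together, given here as a description of arrays that share a slide and a scaling: the median r over 528 pairs was 0.82, and 97.2% of pairs had a positive r (all pairs of features: 0.0025 and 50.2%). Without control array 5 the median was 0.60 and 90.5% were positive (all pairs: 0.014 and 50.8%). The r of a gene with the mean of the others was highest for Rrm1 (0.991) and Rad51ap1 (0.988). It was lowest for Casp8ap2 (0.06), Ung (0.35) and Hells (0.41). Casp8ap2, Hells and Ung are also the 3 genes that were not highest on control array 5.

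Next came a list of 61 further replication genes, chosen for function. Of these, 51 were on the array and 48 were measured. Of the 48, 44 were below 0 (91.7%, against 60.9% of all features), with a median of -0.23. With limma 0 passed the threshold in either direction, where 0.463% of all features were called lower and 3.2% higher. An unadjusted p under 0.05 was found for 2 (4.17%, against 11.9% of all features). Control array 5 had their highest mean, 0.73, while control arrays 2 to 4 had -0.10 to 0.08 and the Klf4 arrays -0.42 to 0.15. Cdc25a, the phosphatase that activates Cdk2, had the lowest difference, reading 3.61, 3.46, 3.50 and 2.99 in the controls and 2.35, 2.35, 3.26 and 2.02 with Klf4. Unlike the 33 genes it was lowest among the controls on array 5, and only Klf4 array 4 reached into the control range. Its difference of -0.89 (SE 0.27, adjusted p = 0.166) passed without Klf4 array 4 (-1.15, adjusted p = 0.0110). Leaving out that array also raised the features called lower from 139 to 407.

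Pola2, the partner of Pola1, and Orc2, of the origin recognition complex, had differences of -0.87 and -0.78 (adjusted p = 0.690 and 0.642), each with its lowest reading on Klf4 array 4 (-6.79 and -2.88). Without that array they were -0.36 and -0.27, and normexp background correction put Pola2 at -0.33. At the other end stood E2f7, a repressor of E2F targets, at 0.23, Pole3, of polymerase epsilon, at 0.04, and Pold1, the catalytic subunit of polymerase delta, also at 0.04. E2f7 read -2.14, -2.26, -2.21 and -2.36 in the controls and -1.98, -1.97, -2.07 and -2.04 with Klf4, with no overlap, but did not pass (adjusted p = 0.492). Timeless, the partner of Tipin at the fork, was singled out after its values were seen, as the other gene with an unadjusted p under 0.05. It read 0.30, 0.61, 0.31 and 0.81 in the controls and -0.38, 0.20, 0.04 and -0.14 with Klf4. Its groups did not overlap, and its difference was -0.58 (SE 0.18, adjusted p = 0.179). Of all features, 4.47% did not overlap with the Klf4 arrays lower and 5.74% with the Klf4 arrays higher.

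Genes of the next stages of the cycle, G2 and M phase, shared the high readings on control array 5 but not the order of the Klf4 arrays. Of 42 listed, 37 were measured and 36 were below 0 (97.3%, against 60.9% of all features), with a median of -0.41. With limma 0 passed the threshold, where 0.463% of all features were called lower and 3.2% higher. None had an unadjusted p under 0.05, against 11.9% of all features. Their mean was 0.89 on control array 5, -0.75 on Klf4 array 2 and 0.40 on Klf4 array 3, where the 33 S phase genes stood at -0.04. At number 3 the Klf4 array was the lower for 3 of 37 G2 and M phase genes (median 0.26) and for 26 of 33 S phase genes (median -0.12). Of all features, 55.2% were lower there. This difference between the lists was not tested.

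**Figure D5:**
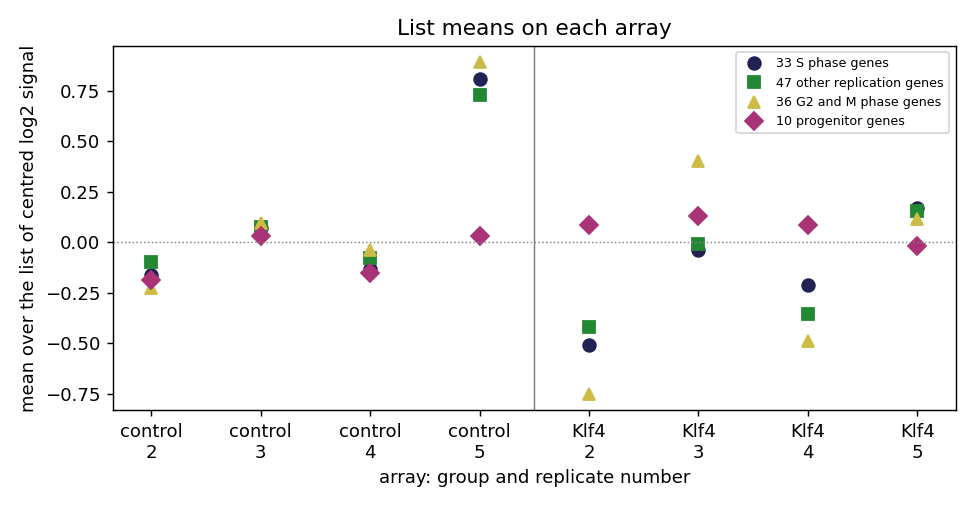
The vertical axis is the mean over a list of the normalised log2 signal of each gene minus its mean over the 8 arrays, for the 33 S phase genes, 47 further replication genes, 36 G2 and M phase genes and 10 progenitor markers without a missing value. On control array 5 the first 3 lists stood at 0.81, 0.73 and 0.89 and the progenitor markers at 0.03.

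Markers of cell types were read beside this pattern. The 10 progenitor markers, among them Sox2, Hes1 and Notch1, were all measured, and their mean ran from -0.19 to 0.03 on the control arrays and from -0.02 to 0.13 on the Klf4 arrays, without a high value on control array 5. Of 10 microglia markers 8 were measured, and control array 5 had their lowest mean, -0.83, with 0.00 to 0.22 on control arrays 2 to 4. Their summed level, in log2, ran from 2.18 to 2.62 in the controls and from 2.45 to 2.68 on the Klf4 arrays, with Ptprc under the well-above-background limit on all 8 arrays. Of 7 red blood cell markers 5 were measured, with a mean of -0.62 on control array 5 against 0.08 to 0.23 on the other controls. Their summed level ran from 2.92 to 4.50 and from 3.22 to 4.67, and Hbb was under that limit on all 8 arrays. Both lists were thus lowest where the S phase genes were highest, but this was not particular to them. The endothelial (6 of 9 measured), pericyte and fibroblast (5 of 8) and pigment epithelium (2 of 8) lists also had their lowest means on control array 5. These were -0.63, -0.32 and -0.25, with the endothelial list at -0.61 on control array 3. By summed level, in log2, the pericyte and fibroblast list was lowest there too (2.57). The endothelial list was not, at 6.89 against 6.55 on Klf4 array 2, nor was the pigment epithelium list, at 5.23 against 5.02 on Klf4 array 2. The pericyte and fibroblast list stood at -0.32 on Klf4 array 5 as well. The lens list (4 of 8 measured) had -0.50 on control array 5 and -0.52 on Klf4 array 5. The retina-defining markers had 0.11 on control array 5. The part of these lists in the S phase result was not tested. The 3 of 5 astrocyte markers without a missing value also had their lowest mean on control array 5, -1.18, with -0.98 to 0.26 on control arrays 2 to 4. Their median was not lowest on that array, at -0.12 against -0.16 on Klf4 array 2. Single markers passed the limma test between the groups. Crx, a photoreceptor factor, was lower with Klf4 (-0.84, adjusted p = 0.0379). C1qb (1.04, adjusted p = 0.0243), S100b (3.80, adjusted p = 0.0320), Col1a1 (1.36, adjusted p = 0.00123) and Tek (2.38, adjusted p = 0.00161) were higher. Beside S100b, the other measured astrocyte markers, Gfap, Pax2 and Pdgfra, had -0.40, -0.09 and -0.44. Beside Col1a1, Pdgfrb, Col1a2, Col3a1 and Acta2 had -0.86, -0.47, -0.17 and -0.11. The other measured microglia markers ran from -0.23 (Cx3cr1) to 0.60 (Aif1), and the other retina-defining markers from -0.99 (Nrl) to 0.29 (Lhx2). None of these passed. Esam passed as higher too, though it was well above background on 0 of 4 control and 3 of 4 Klf4 arrays. The other 4 measured endothelial markers, Cdh5, Kdr, Flt1 and Vwf, had differences of -0.02 to 0.13 and did not pass.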

How the data were processed

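Gene expression was measured on 8 single-colour Agilent arrays, 4 control and 4 Klf4, grouped by the treatment in the labels. Per the file headers, the dye was Cy3 and the intensity of each spot was read with Feature Extraction 10.7.3.1 on a design of build rn4. The deposited processed intensity is background-subtracted and detrended within an array and is not scaled between arrays. Other deposited values, per the file headers, are that software's flags for control, outlier, saturated and well-above-background spots. The authors also deposited a log2 table, by steps not given in the sources used here, whose columns have medians of 7.55 and correlated best with their own arrays (r 0.994 to 1.00). It served as an alternative. Its scale and direction follow the signals, and genes were not centred.

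Outlier spots (324 to 421 per array) were left out, and 0 gene spots were saturated. The log2 signals of a probe were averaged, and the 75th percentile over all gene probes of an array was subtracted. Probes stayed in if either group had at least 3 of 4 arrays well above background, and a gene is its kept probe with the highest mean. Of the gene probes, 21109 had 1 symbol through a RefSeq table of GRCr8 and 24489 had none. The test was limma 3.58.1 under R 4.3.3 (lmFit, then eBayes), two-sided, without covariates, with Benjamini-Hochberg adjustment over 30020 features. The script was tested on simulated data. Promoter words were searched in Python 3.11.15, and figures were drawn with matplotlib 3.10.9. Precision is limited by how few arrays there are.

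The genes and lists were chosen with earlier results of these data known. Named are the 33 genes, Klf4, and of the further replication genes any past the threshold and the 3 lowest and 3 highest differences. Timeless and the cell type markers that passed were named after their values were seen. Alternatives were other background corrections (normexp with an offset of 50 on median spot and background signals), scalings, filters, probe rules, blocks and left-out arrays. Protein sequences of the genes were not analysed here.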

Additional observations from a re-analysis of the deposited data

Results flagged for a closer look

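In a group of 4 arrays, 1 array stood far from the other 3 by Dixon's criterion in 6 of 86 groups tested, and chance gives about 1 in 20. That count is close to the chance rate, so the flags are not read as a result about these genes. The 33 genes also varied together over the arrays (median r 0.82), so the flags are not independent of each other. On control array 5, Pola1 read -2.36 against -3.85 to -3.74 on the other controls, and Pold3 read 0.27 against -0.55 to -0.50. On the same array Tyms, thymidylate synthase, read -0.69 against -1.68 to -1.61, and the histone chaperone Nasp read 4.02 against 3.37 to 3.47. On Klf4 array 2, Gmnn, which encodes geminin, read -1.34 against -0.55 to -0.42 on the other Klf4 arrays, and Atad2 read -2.54 against -1.81 to -1.66. The 4 on control array 5 were high readings and the 2 on Klf4 array 2 were low ones.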

How the results depend on the processing

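Over 22 alternatives, the median difference of the 33 genes stayed below 0, from -0.42 without Klf4 array 5 to -0.09 without control array 5. The number of the 33 genes past the threshold as lower was 1, Hells, with the mean over probes, with array weights and without Klf4 array 4, and 0 otherwise (0 to 1 over the arrays left out). The number of further replication genes was 1, Cdc25a, with array weights, without both arrays numbered 4 and without Klf4 array 4 (0 to 1 over the arrays left out). Signs turned in these genes. With array weights Gmnn was 0.078 and Casp8ap2 -0.018. In the first scan alone Gmnn was 0.17, Pcna 0.015, Pold3 0.0094, Tipin 0.094 and Nasp 0.028. Without both arrays numbered 4, Casp8ap2 was -0.076, Usp1 -0.021 and Pold1 -0.049. Without control array 5 the genes below 0 went from 30 to 21. Over the arrays left out singly, Gmnn ran from -0.26 to 0.27, Pcna from -0.26 to 0.069, Pola1 from -0.65 to 0.026, Pold3 from -0.21 to 0.067, Tipin from -0.24 to 0.12, Nasp from -0.25 to 0.018, Chaf1b from -0.32 to 0.065, Slbp from -0.52 to 0.059, Casp8ap2 from -0.047 to 0.15, Ubr7 from -0.14 to 0.029, Pole3 from -0.0099 to 0.14, Pold1 from -0.090 to 0.20 and the Klf4 probe from -0.15 to 0.54. The replicate numbers did not pair the arrays by the rule used (r of same-numbered deviations 0.356, 0.244, 0.0614 and 0.551, and Klf4 array 4 correlated best with number 3). With the replicate number as a block the median was -0.32, 0 of 33 genes passed, 13 had an unadjusted p under 0.05 and the smallest adjusted p was 0.100, with 101 features lower and 840 higher. The share of all features with an unadjusted p under 0.05 is not given beside the 13. All features called lower and higher, 139 and 961 as reported, came to 254 and 1147 under a scan block, to 1107 and 1776 under array weights and to 2 and 524 when nothing was scaled. Without Klf4 array 4 they came to 407 and 1216, without both arrays numbered 4 to 170 and 937, and with the mean over probes to 155 and 934. The cause of these changes was not tested. The scaling over kept probes alone was chosen after seeing the data and gave a median of -0.33.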

Other observations

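On Klf4 array 4 the probes went apart for 3 of the 10 genes with more than 1 probe, a pattern picked out after the values were seen. The dimmest probe of Mcm4 read -4.38 there, against -2.31 to -1.70 on the other Klf4 arrays, while another probe of Mcm4 read 2.62, against 1.93 to 2.29. For Rrm1 the dim probe read -4.02 there, against -2.62 to -1.50, and the bright probe 3.33, against 2.96 to 3.64. The Hells probes went apart on the same array, at -4.16 and -0.68. Over all features, this array had the highest reading for 23.9% and the lowest for 27.7%. It had the smallest share of gene spots well above background, 72.1%, with a 75th percentile signal of 5304, and it is 1 of the 2 arrays outside the quality limits. These values are given without an explanation, and the pattern was not tested.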
